A study of Homo sapiens with 4 samples.

Results

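The genes described here are 42 genes of glycolysis and of the response to low oxygen, taken by symbol from a fixed list: 17 glycolytic enzymes, counted through to lactate dehydrogenase, and 25 other genes of glucose handling and of the hypoxia-inducible factors (HIF). Of these 42, 41 had a row in the deposited table of 20510 genes, and CA9 is not analysed here. RNA came from cultures labelled K1, a human line derived from papillary thyroid carcinoma, with a control hairpin (shCtrl, 2 libraries) or with a hairpin against the T-box repressor TBX3 (shTBX3, 2 libraries). The cells grew in serum-containing medium, and the labels name no low-oxygen or low-glucose condition for any library. Whether the hairpins were carried by clones or by pooled cells, and whether more than 1 hairpin was used, is not given in the sources used here.

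Glycolysis splits glucose into pyruvate, and in many tumour lines most of that pyruvate becomes lactate and is exported even when oxygen is present. HIF is a dimer whose alpha subunit, encoded by HIF1A or EPAS1, is hydroxylated by the EGLN enzymes and then destroyed while oxygen is plentiful. When oxygen is scarce the subunit persists and binds a short DNA core, and genes for glucose uptake, nearly every glycolytic step, angiogenesis and mitochondrial turnover are known targets. Since this switch acts mainly on protein stability, the mRNA of HIF1A is no measure of HIF activity.

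The binding core of HIF reads ACGTG or GCGTG, and promoters of genes whose values are described below show how it sits in members of the list. RefSeq starts on GRCh38.p14 were found for 38 of the 42 members. BNIP3L, NDRG1, SLC2A3 and VEGFA were the others. In the 250 bases before each start, ACGTG was present on either strand in 28 of 68 promoters of the members (41.2%) and in 18.5% of all 35116 promoters. GCGTG was present in 25 of 68 (36.8%) and in 32.2% of all. The letters GGTGTGA, the core of the T-box site, were present on either strand in 2 of 68 promoters, those of P4HA1 and PGAM1, and in 2.76% of all promoters. These are matches of letters and show no binding. LDHA and ENO1 are shown for the enzymes that stood higher in shTBX3, EPAS1 for the member with the smallest p, and DDIT4 for the members that differed most between replicates. The sequences run 5′ to 3′ on the strand of the gene and end at the base before its start, with each ACGTG or GCGTG of either strand in capitals (CACGTG holds the first motif on both strands and counts as 2).
LDHA, plus strand, chr11:18394313-18394562: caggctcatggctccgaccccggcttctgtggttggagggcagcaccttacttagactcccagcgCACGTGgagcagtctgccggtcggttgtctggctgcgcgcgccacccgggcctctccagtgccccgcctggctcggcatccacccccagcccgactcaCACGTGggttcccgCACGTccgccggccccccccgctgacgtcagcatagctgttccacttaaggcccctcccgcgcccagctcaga
ENO1, minus strand, chr1:8878687-8878936: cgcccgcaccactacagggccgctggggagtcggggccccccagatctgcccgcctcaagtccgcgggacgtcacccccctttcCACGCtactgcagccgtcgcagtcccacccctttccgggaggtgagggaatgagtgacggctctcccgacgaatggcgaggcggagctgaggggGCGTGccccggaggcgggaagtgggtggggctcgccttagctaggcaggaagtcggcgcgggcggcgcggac
EPAS1, plus strand, chr2:46297157-46297406: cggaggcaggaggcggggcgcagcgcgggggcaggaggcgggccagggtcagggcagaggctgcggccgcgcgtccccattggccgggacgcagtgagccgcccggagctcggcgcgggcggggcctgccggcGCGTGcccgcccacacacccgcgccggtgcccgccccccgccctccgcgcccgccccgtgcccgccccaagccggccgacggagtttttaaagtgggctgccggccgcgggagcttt
DDIT4, plus strand, chr10:72273674-72273923: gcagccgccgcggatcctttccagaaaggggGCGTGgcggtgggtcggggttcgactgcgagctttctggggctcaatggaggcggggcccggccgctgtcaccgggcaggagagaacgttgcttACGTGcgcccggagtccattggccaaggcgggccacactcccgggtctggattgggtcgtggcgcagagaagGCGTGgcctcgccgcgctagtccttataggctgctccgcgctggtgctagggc
In this window the LDHA promoter shown, the first listed of 2 for this gene, held 5 matches to ACGTG. The LDHA promoter not shown held 1 match to GCGTG. The ENO1 promoter held 2 to GCGTG, the EPAS1 promoter 1 to GCGTG, and the DDIT4 promoter 1 to ACGTG and 2 to GCGTG.

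Levels are FPKM, fragments scaled to transcript length and to the mapped fragments of the library, so they can be compared between genes. The best fit of whole steps to the values of microRNA genes placed the libraries between 8370000 and 8710000 fragments. In that fit 77.4% to 84.1% of the values used in a library lay on a whole step, so these depths are estimates. By them an FPKM of 1 rests on 8.37 to 8.71 fragments per kilobase of transcript. TBX3 stood at 48.9 and 54.8 in shCtrl, versus 27.8 and 36.99 in shTBX3, so the hairpin libraries held 0.625 of the control mean (limma adjusted p = 0.428). Of 13 thyroid markers, 5 passed the filter described next, among them SLC5A5 (2.42 to 3.28), HHEX (2.72 to 2.88) and PAX8 (1.88 at most). TG, TSHR, NKX2-1 and FOXE1 stayed at an FPKM of 0.31 or below in every library. Of 10 colon markers 6 passed, with the intestinal factor CDX2 between 117 and 148. CDH17 lay at 32.6 to 45.1, KRT20 at 18.3 to 36.2 and VIL1 at 8.86 to 12.1. LGALS4 stood at 4.33 and 5.59 in shCtrl, versus 1.31 and 1.39 in shTBX3. CDX1, MUC2, FABP1 and GPA33 stayed at 0.58 or below. Of the 6 colon markers tested, the log2 fold change was negative in 5 and positive in 1. Among the colon markers PHGR1 was called lower in shTBX3 (12.4 and 13.5 against 0.83 and 1.09, limma adjusted p = 0.00779), and its part in the results on the members was not tested. In bulk RNA, fewer cells of a type and less RNA per cell cannot be told apart. Differences were tested with limma on log2(FPKM + 1) over the 13924 genes that reached an FPKM of 1 in 2 libraries or more, and a gene was called at an adjusted p under 0.05. The labels do not say that replicates were separate cultures, and the p-values therefore rest only on how far these libraries differ, which may be technical.

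The glycolytic enzymes were among the most abundant messages of these cells. Summed over the 17 enzymes, FPKM was 11754 and 11607 in shCtrl, versus 12982 and 13551 in shTBX3, or 2.32%, 2.28%, 2.56% and 2.59% of all FPKM in the library. GAPDH, which oxidises glyceraldehyde phosphate and yields the NADH of the pathway, held between 46.8% and 53.4% of that sum. Its FPKM was 5697 and 5808 in shCtrl, versus 6069.9 and 7232 in shTBX3. Next came PKM, the pyruvate kinase, at 1131 and 1179.5 in shCtrl, ENO1, the main enolase, at 1157 and 1063, and ALDOA, the main aldolase, at 1093 and 1055. The shCtrl ranges of PKM and ENO1 overlapped, as did those of ENO1 and ALDOA, so the place of ENO1 is not resolved, while PKM stood above ALDOA in both groups. The triose phosphate isomerase TPI1 followed at 741 and 649.

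The kinases of the entry steps stood lower than the main enzymes that follow the split of the sugar, though not lower than ENO2. HK1 and HK2, the hexokinases that trap glucose in the cell, were at 28.8 and 33.5 and at 18.7 and 19.7 in shCtrl. GPI, which turns glucose phosphate into fructose phosphate, was at 218 and 214. The phosphofructokinase subunits PFKL and PFKP, at the committed step, were at 97.8 and 108 and at 107 and 103. PGK1 and PGAM1, the kinase and the mutase of phosphoglycerate, lay at 153 and 172 and at 328 and 304. LDHA and LDHB, the lactate dehydrogenase subunits, lay at 487 and 419 and at 464 and 441, with overlapping ranges. Levels of mRNA per length are not enzyme activities.

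**Figure D1:**
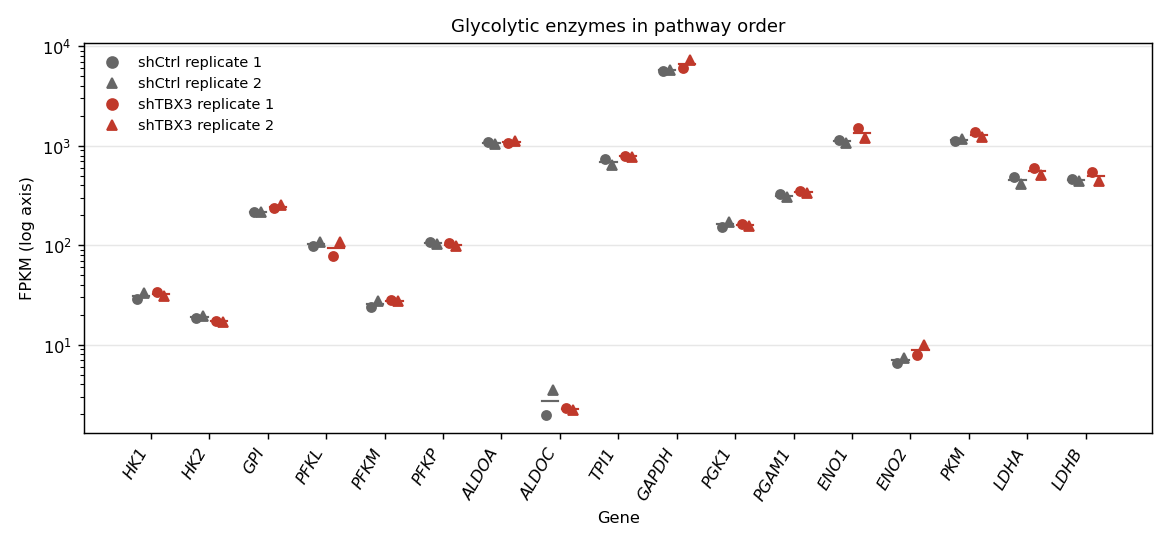
FPKM (log axis) of the 17 glycolytic enzymes in pathway order; circles are replicate 1 and triangles replicate 2 of shCtrl (grey) and shTBX3 (red), and short bars are group means. GAPDH lies between 5697 and 7232 and ALDOC, at the other end, between 1.96 and 3.53.

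The first comparison asked how the enzymes differed between shTBX3 and shCtrl. In 8 of 17 enzymes both shTBX3 libraries stood above both shCtrl libraries, and in 1, HK2, both stood below. Over all genes tested, 14.8% stood wholly above and 19.7% wholly below, and among the 695 genes with a mean FPKM of at least 100, 20.4% stood wholly above. The differences were small. No enzyme was called by limma (0 of 17, and 0 at an unadjusted p under 0.05), where 0.18% of all genes tested were called and 6.67% had an unadjusted p under 0.05. With the replicate block, LDHA and ENO2 did have an unadjusted p under 0.05 (limma adjusted p = 0.288 and 0.336). In that fit 1989 of all 13924 genes tested did. The median log2 fold change of the enzymes was 0.12, with 12 positive and 5 negative (70.6% positive). Over all genes tested the median was −0.01 and 46.9% were positive. Among the genes with a mean FPKM of at least 100 the median was 0.05 and 62.7% were positive. The 95% intervals of the 17 fold changes lay between −0.753 (ALDOC) and 0.71 (ENO2) on log2(FPKM + 1). None of them reached a doubling or a halving of FPKM + 1. For a low gene such as ALDOC this does not exclude a halving of FPKM itself. Under quantile normalization, which fixes the values at each rank and so bears most on abundant genes, 5 of 17 enzymes stood wholly above (18.3% of all genes). GPI, GAPDH, ENO1 and PKM no longer did, and PFKM did. Under upper quartile scaling 9 of 17 stood wholly above, against 19.1% of all genes and 29.6% of those with a mean FPKM of at least 100.

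LDHA, which reduces pyruvate to lactate, stood at 487 and 419 in shCtrl, versus 603 and 506 in shTBX3. Every shTBX3 value lay above both controls, by a narrow margin in replicate 2. By group mean LDHA was 453 ± 48.3 (shCtrl) against 555 ± 69.0 (shTBX3; SD, n = 2 per group), 1.22 times the control, and the log2 fold change was 0.29 ± 0.15 (SE), for which limma gave an adjusted p of 0.830. ENO1 (1157 and 1063 against 1508 and 1209.7) was similar in size, and the log2 fold change was 0.28 ± 0.15, for which limma gave an adjusted p of 0.838. The other enolase ENO2, which neurons are known for, stood at 6.63 and 7.40 against 7.82 and 10.1, and the log2 fold change was 0.30 ± 0.17, for which limma gave an adjusted p of 0.852. With 1 library left out the log2 fold change ran from 0.16 to 0.42 for LDHA and from 0.13 to 0.44 for ENO1.

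GAPDH was 1.16-fold higher in shTBX3 by means, and the log2 fold change was 0.20 ± 0.13 (SE), for which limma gave an adjusted p of 0.895, and it ran from 0.08 to 0.33 with 1 library left out. TPI1 was at 789 and 782 in shTBX3 (0.18 ± 0.12, limma adjusted p = 0.903) and GPI at 237 and 253 (0.18 ± 0.11, limma adjusted p = 0.889). PKM stood at 1379 and 1219 in shTBX3 (0.17 ± 0.12, limma adjusted p = 0.915). Of the libraries of PKM, shTBX3 replicate 2 lay just above the higher control. PGAM1, the eighth of these enzymes, was at 353 and 337. HK2, the hexokinase known as a HIF target, was the enzyme on the other side, at 17.6 and 17.1 in shTBX3 (−0.14 ± 0.13, limma adjusted p = 0.931). In the remaining 8 enzymes the groups overlapped. HK1 was at 33.7 and 31.3 in shTBX3, PFKL at 78.8 and 108, PFKM at 28.3 and 27.5, and PFKP at 105 and 97.9. ALDOA was at 1058 and 1124, ALDOC at 2.31 and 2.21, PGK1 at 165 and 155, and LDHB at 547 and 440.03. PFKL and LDHB each had replicate 1 of shTBX3 well outside the control range and replicate 2 within it or at its edge.

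On GRCh37 (hg19, the build named in the submitters' processing notes), LDHA spans 18416107 to 18429972 on chromosome 11, ENO1 8921059 to 8939249 on chromosome 1 (minus strand) and GAPDH 6643678 to 6647540 on chromosome 12. Many processed pseudogenes are known for GAPDH, ENO1, LDHA, PGK1, PGAM1 and TPI1, and how fragments shared with such copies were assigned is not given in the sources used here. The table carried TPI1P2, TPI1P3 and PGAM1P5, at 0.65 or below in every library.

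Isozyme pairs were set against each other within each library, where a scaling of the library cancels. LDHB, the subunit known for oxidising lactate in heart, held 48.8% and 51.3% of the summed LDHA and LDHB level in shCtrl, versus 47.5% and 46.5% in shTBX3. HK2 held 39.4% and 37.04% of the hexokinase pair in shCtrl, versus 34.3% and 35.2% in shTBX3. Both shares stood lower in shTBX3 with no overlap, with differences of −3.003 and −3.44 percentage points. PFKM, the muscle subunit of phosphofructokinase, held 10.506% and 11.6% in shCtrl, versus 13.3% and 11.8% in shTBX3, 1.51 points more by means. PFKL held from 37.1% to 46.2% and PFKP from 42.0% to 49.5%, and they lay furthest apart in shTBX3 replicate 1. ALDOC and ENO2, known from brain, held 0.33% or less and 0.82% or less of their pairs. In an exact permutation test over the 4 libraries, two-sided, 6 of 14 shares had no overlap (3 higher and 3 lower in shTBX3, where 14.8% and 19.7% of single genes did so) and gave p = 0.333 each, the smallest that 2 against 2 libraries allow (0.778 after Benjamini-Hochberg adjustment over the 14).

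**Figure D2:**
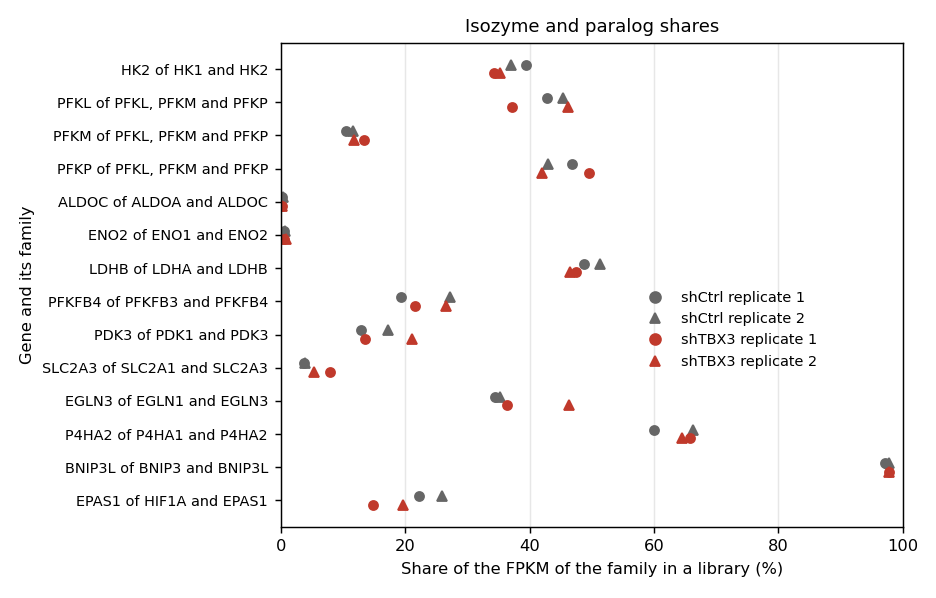
Share of the summed FPKM of a family held by the gene named first, in percent of that sum within each library; circles are replicate 1 and triangles replicate 2 of shCtrl (grey) and shTBX3 (red). EPAS1 lies at 22.2% and 25.9% in shCtrl, versus 14.9% and 19.6% in shTBX3, and the LDHB points of the groups do not overlap.

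Glucose enters through facilitative transporters and lactate leaves through monocarboxylate transporters. SLC2A1, which encodes GLUT1 and is a classical HIF target, was the main glucose carrier at 109 and 81.3 in shCtrl, versus 81.7 and 70.0 in shTBX3. Its control libraries differed more from each other than shCtrl replicate 2 did from shTBX3 replicate 1, and the log2 fold change was −0.31 ± 0.18 (SE, limma adjusted p = 0.859). SLC2A3, the high-affinity carrier GLUT3, was at 4.16 and 3.24 against 6.98 and 3.88 (0.42 ± 0.26, limma adjusted p = 0.881). The groups overlapped for both genes, but the SLC2A3 share of the pair did not, at 3.66% and 3.83% in shCtrl, versus 7.87% and 5.25% in shTBX3. With 1 library left out the log2 fold change ran from 0.06 to 0.77 for SLC2A3 and from −0.53 to −0.10 for SLC2A1. SLC16A3, which exports lactate and is known as MCT4, was at 53.1 and 62.3 against 55.1 and 84.3 (0.24 ± 0.22, limma adjusted p = 0.931).

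A further 4 members set the flux around these steps. PFKFB3, which makes the fructose bisphosphate that activates phosphofructokinase, was at 12.6 and 12.5 in shCtrl, versus 11.2 and 11.1 in shTBX3. Its replicates lay close together and the groups did not overlap. The log2 fold change was −0.15 ± 0.13 (limma adjusted p = 0.925), where limma draws the spread of each gene towards that of genes of like level. The related PFKFB4 was at 3.02 and 4.67 against 3.08 and 4.03. PDK1, which blocks pyruvate dehydrogenase and so keeps pyruvate out of mitochondria, was at 14.5 and 16.0 against 15.6 and 16.9. PDK3, of the same kinase family, was at 2.14 and 3.32 against 2.45 and 4.49 (0.24 ± 0.28, limma adjusted p = 0.953). PDK1, PDK3 and PFKFB4 were each higher in both replicate 2 libraries than in both replicate 1 libraries.

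Among the HIF components, the alpha subunit EPAS1 (HIF-2 alpha) had the smallest p of all members. EPAS1 stood at 9.48 and 11.8 in shCtrl, versus 5.62 and 8.16 in shTBX3. Both shTBX3 values lay below both controls, and so the shTBX3 library was by necessity the lower at each replicate number. By group mean EPAS1 was 10.6 ± 1.63 (shCtrl) against 6.89 ± 1.80 (shTBX3; SD, n = 2 per group), 0.648 of the control, with a log2 fold change of −0.57 ± 0.20 and an unadjusted p of 0.0309 in limma. Adjusted over all genes the limma p was 0.659, so EPAS1 was not called. With 1 library left out its log2 fold change ran from −0.81 to −0.34. It spans 46520806 to 46613836 on chromosome 2 of GRCh37. HIF1A was nearly level, at 33.3 and 33.7 in shCtrl, versus 32.2 and 33.5 in shTBX3, with a 95% interval of its log2 fold change from −0.32 to 0.27. EPAS1 thus held 22.2% and 25.9% of the summed level of both subunits in shCtrl, versus 14.9% and 19.6% in shTBX3, a difference of means of −6.84 points. HIF1A overlaps antisense genes, of which HIF1A-AS2 was listed at 11.4 to 16.0, and without a stated strand their shared fragments cannot be told apart.

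The prolyl hydroxylases mark HIF alpha for destruction and are themselves known targets. EGLN1, the main enzyme of that step, was nearly level at 10.3 and 10.1 in shCtrl, versus 10.2 and 10.0 in shTBX3. EGLN3, the more inducible form, was at 5.41 and 5.48 against 5.87 and 8.64, with no overlap, and its log2 fold change was 0.34 ± 0.20 (limma adjusted p = 0.867). EGLN3 held 34.4% and 35.2% of the sum with EGLN1 in shCtrl, versus 36.4% and 46.3% in shTBX3. The difference rested on shTBX3 replicate 2, since without it the log2 fold change of EGLN3 was 0.09.

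The remaining members are other targets of HIF. Of 13 with a row in the table, 10 passed the filter. BNIP3 (0.43 to 0.57), ANGPTL4 (0.19 to 0.77) and LOX (0.31 to 0.49) did not, so the mitophagy receptor BNIP3, the lipase inhibitor ANGPTL4 and the collagen cross-linker LOX were barely expressed in any library. BNIP3L, the other mitophagy receptor, was at 14.6 and 21.8 in shCtrl, versus 18.5 and 25.4 in shTBX3 (0.26 ± 0.23, limma adjusted p = 0.931), and held 97.1% or more of the BNIP3 and BNIP3L sum. CA12, a membrane carbonic anhydrase that handles acid outside the cell, was at 3.44 and 2.48 against 2.50 and 2.69. The highest CA12 value was that of shCtrl replicate 1, and the groups overlapped.

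VEGFA, the growth factor for vessels, stood at 20.6 and 27.3 in shCtrl, versus 21.2 and 36.8 in shTBX3. ADM, the vasodilator peptide adrenomedullin, was at 7.90 and 10.8 against 8.62 and 10.4. For both genes each group had a low replicate 1 and a high replicate 2. The collagen prolyl hydroxylases P4HA1 and P4HA2 were at 7.01 and 8.22 against 7.29 and 8.44 and at 10.54 and 16.1 against 14.1 and 15.3. KDM3A, a histone demethylase, was at 2.72 and 4.80 against 4.09 and 5.42 (0.30 ± 0.25, limma adjusted p = 0.927). ANKRD37, a small ankyrin repeat protein and sensitive HIF target, was the 1 tested gene of this group whose groups did not overlap, at 3.48 and 3.51 against 4.49 and 3.80 (0.19 ± 0.16, limma adjusted p = 0.925).

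The largest differences within the list lay between replicates. NDRG1, a stress and differentiation gene, stood at 7.61 and 22.2 in shCtrl, versus 7.36 and 16.99 in shTBX3. DDIT4, which encodes the mTOR inhibitor REDD1 and answers to several stresses besides low oxygen, stood at 29.1 and 53.1 in shCtrl, versus 18.3 and 57.8 in shTBX3. For both genes the libraries of each group differed by more than the group means did: replicate 2 over replicate 1 was 2.92 and 2.31 for NDRG1 and 1.83 and 3.16 for DDIT4, in shCtrl and shTBX3. The 95% intervals of their knockdown log2 fold changes were accordingly wide, from −1.50 to 1.09 for NDRG1 and from −1.56 to 1.04 for DDIT4.

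**Figure D3:**
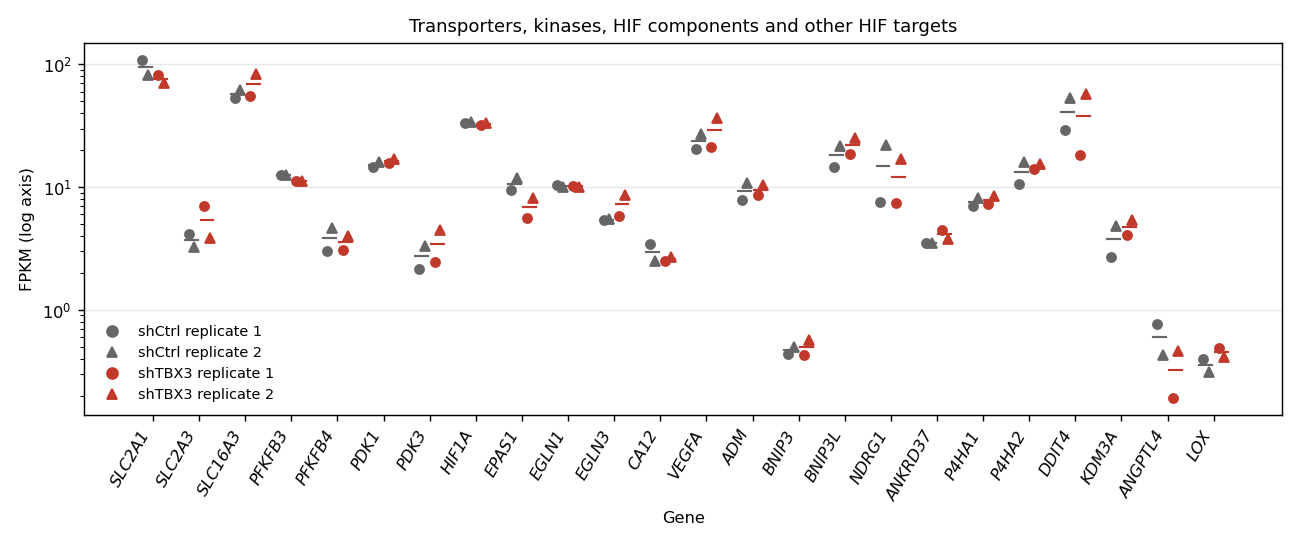
FPKM (log axis) of the 24 other members with a row in the table; circles are replicate 1 and triangles replicate 2 of shCtrl (grey) and shTBX3 (red), and short bars are group means. In NDRG1, DDIT4, VEGFA and BNIP3L the triangles of both groups lie above the circles, while HIF1A and EGLN1 are level in all 4 libraries.

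The second comparison set the enzymes against the other members. Among the 21 other members tested, the log2 fold change was above 0 in 12 and below 0 in 9, with a median of 0.04. EGLN3 and ANKRD37 stood wholly above and EPAS1 and PFKFB3 wholly below, 2 in each direction (9.52% above, against 14.8% of all genes). Limma called 0 of these 21 members, where 0.18% of all genes tested were called. An unadjusted p under 0.05 was found for 1, EPAS1, where 6.67% of all genes tested had one. In both directions together, groups did not overlap in 9 of 17 enzymes and in 4 of 21 other members, where 14.8% of all genes tested stood wholly above and 19.7% wholly below. Under quantile normalization these counts were 6 of 17 and 6 of 21, with 18.3% and 16.5% of all genes. Under upper quartile scaling 9 enzymes stood wholly above and 1 below, and 2 other members in each direction, with 19.1% and 16.4% of all genes. The contrast between enzymes and other members thus depended on the scaling, being smaller under quantile normalization and not under upper quartile scaling. The spread differed as well, with a median SE of the log2 fold change of 0.132 for the enzymes, 0.205 for the other members and 0.165 for all genes tested. The order of the medians was not stable: the other members stood above the enzymes under quantile normalization (0.09 against 0.08), without shCtrl replicate 2 (0.20 against 0.14) and without shTBX3 replicate 1 (0.14 against 0.08). The difference between the medians was not tested.

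**Figure D4:**
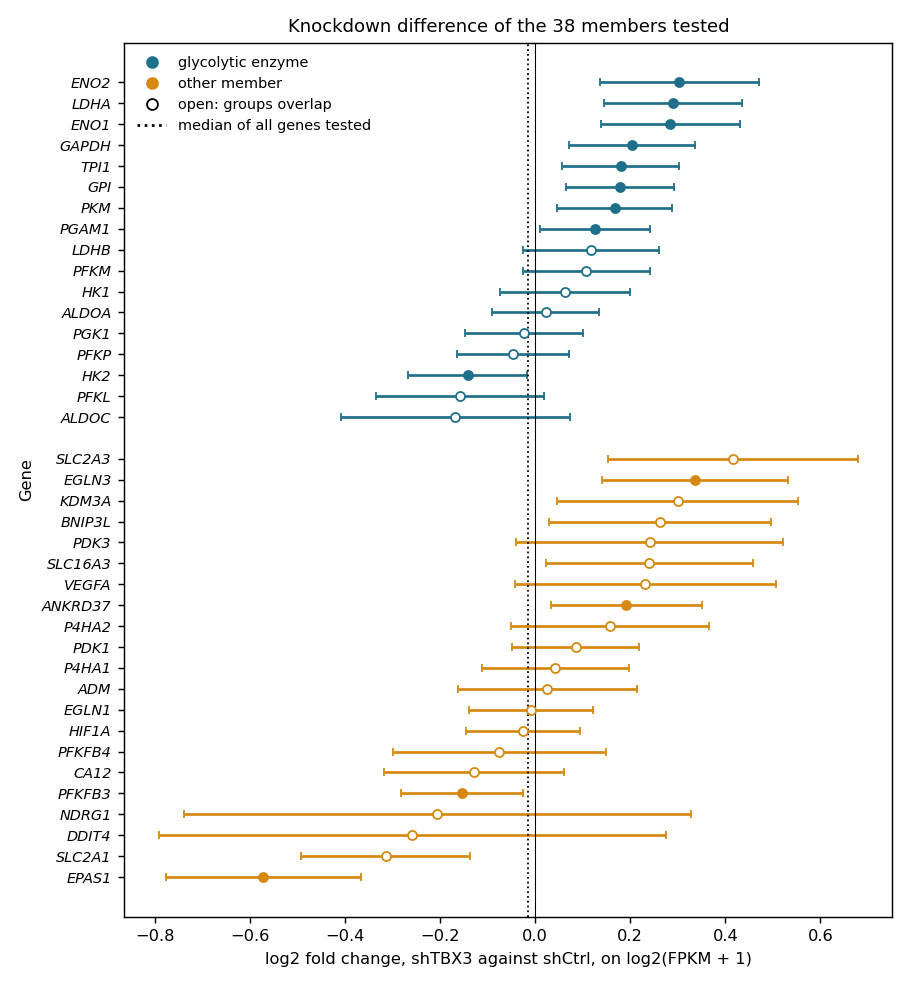
Log2 fold change of shTBX3 against shCtrl on log2(FPKM + 1) for the 38 members tested, with bars of 1 SE from limma; blue marks enzymes and orange other members, open circles have overlapping groups, and the dotted line is the median of all genes tested (−0.01). The 8 filled blue points on the right are the enzymes that stood higher without overlap, and EPAS1 is the leftmost point.

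Sorted by replicate number in place of hairpin, the other members were the group with little overlap. In 13 of the 21 other members both replicate 2 libraries stood above both replicate 1 libraries, where 22.2% of all genes tested did, and in 3 (SLC2A1, SLC2A3 and EGLN1) both stood below, where 23.2% did. These 13 were SLC16A3, PFKFB4, PDK1, PDK3, HIF1A, VEGFA, ADM, BNIP3L, NDRG1, P4HA1, P4HA2, DDIT4 and KDM3A. Among the 17 enzymes, PFKL alone stood above and PFKP and LDHB below. For the 10 tested members given above as other targets of HIF, the median log2 difference of replicate 2 minus replicate 1 was 0.48 in shCtrl, versus 0.29 in shTBX3. It was 0.03 and −0.04 for the enzymes and 0.01 and 0 for all genes tested. With single libraries left out, the sign of the log2 fold change turned in all of these 13 genes but PDK1. The 13 were picked by their order by replicate number. Leaving out 1 library unbalances the numbers, which can turn the sign by itself. At the same replicate number, shTBX3 lay on the same side of shCtrl at both numbers in all but PFKFB4, ADM, P4HA2 and DDIT4. When 1 library was left out, the log2 fold change turned negative for VEGFA, P4HA1, P4HA2 and ADM, for SLC16A3 (−0.06) and PDK3 (−0.09) without shTBX3 replicate 2, and for BNIP3L (−0.01) and KDM3A (−0.02) without shCtrl replicate 1. It turned positive for PFKFB4, HIF1A, NDRG1 and DDIT4. What a replicate number stands for is not given in the sources used here, and the libraries of both numbers have similar estimated depth. The part of culture or handling in these values was not tested.

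**Figure D5:**
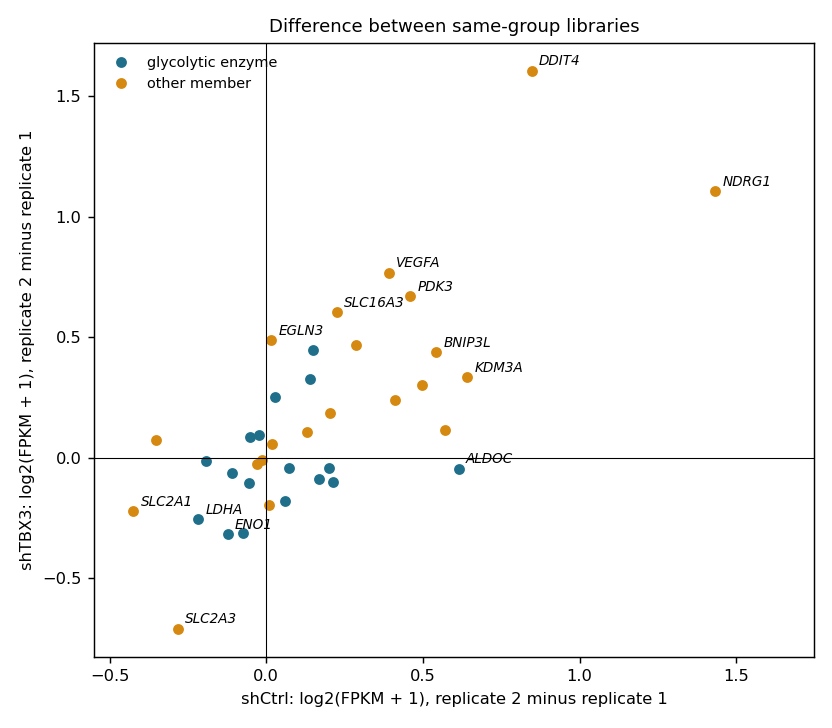
Difference of replicate 2 minus replicate 1 on log2(FPKM + 1) within shCtrl (horizontal) and within shTBX3 (vertical) for the 38 members tested; blue marks enzymes and orange other members. DDIT4 and NDRG1 lie at the upper right, with ratios of 1.83 and 3.16 and of 2.92 and 2.31, and most enzymes lie near the origin.

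Other genes of these pathways, from lists set beside the members, gave few differences. Limma called none of them as the fit was set, though ERO1A came past the threshold under 2 alternatives. Of 24 further genes of glycolysis and pyruvate metabolism tested, 10 were positive and 14 negative, with a median log2 fold change of −0.07. PGAM2, the muscle phosphoglycerate mutase, stood at 1.25 and 1.89 against 0.28 and 0.82 (−0.74 ± 0.27, limma adjusted p = 0.659), and GPD1, a glycerol phosphate dehydrogenase, at 1.31 and 1.09 against 0.66 and 0.55 (−0.45 ± 0.21, limma adjusted p = 0.798). Both are low genes. Of 8 pentose phosphate genes tested, 3 were positive and 5 negative (median −0.02). The transaldolase TALDO1 was at 225 and 236 against 200.5 and 191 (−0.24 ± 0.11, limma adjusted p = 0.816) and the ribose phosphate isomerase RPIA at 11.8 and 9.53 against 15.0 and 12.5 (0.34 ± 0.17, limma adjusted p = 0.817).

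Of 16 genes of the machinery that senses oxygen and acts with HIF, 13 were positive (median 0.11), against 46.9% of all genes tested. In shTBX3, 6 stood wholly above, or 37.5%, against 14.8% of all genes, and this list was not tested as a group. SIAH2, a ubiquitin ligase for the prolyl hydroxylases, was at 13.2 and 11.96 against 14.4 and 15.8 (0.25 ± 0.14, limma adjusted p = 0.852). OS9, a lectin of the endoplasmic reticulum, was on the other side at 39.6 and 44.7 against 33.4 and 29.3 (−0.42 ± 0.14, limma adjusted p = 0.617).

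Of 39 further HIF targets tested, 19 were positive and 20 negative (median −0.01). ERO1A (also known as ERO1L), the oxidase that drives disulfide formation in the endoplasmic reticulum, differed most and came nearest to the threshold. ERO1A stood at 34.9 and 30.1 in shCtrl, versus 14.6 and 15.6 in shTBX3, so both knockdown libraries lay far below both controls. Its log2 fold change was −1.05 ± 0.14 (SE), with a ratio of means of 0.464 and a limma adjusted p of 0.0965. That p was 0.0449 among genes with an FPKM of 5 or more in 2 libraries and 0.0327 with the replicate block, and it ranged from there up to 0.298 over all alternatives. ERO1A spans 53106633 to 53162618 on chromosome 14 of GRCh37, minus strand. ERRFI1, an inhibitor of the EGF receptor, was at 44.9 and 52.1 against 37.1 and 37.3 (−0.37 ± 0.13, limma adjusted p = 0.658). Both genes lay in the direction opposite to the median of the glycolytic enzymes.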

How the data were processed

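Total RNA of 4 libraries was sequenced, and the authors deposited 1 table of FPKM per gene and library. HISAT, Bowtie2 and RSEM and the build hg19 are named in the submitters' processing notes, without versions or roles; strandedness and molecular identifiers: not given in the sources used here. Since FPKM hides the counts, no count test was run. On the scale of log2(FPKM + 1), limma 3.58.1 was run under R 4.3.3 (eBayes with trend, two-sided, Benjamini-Hochberg over all genes tested), keeping genes that reached an FPKM of 1 in 2 libraries or more. A fold change on this scale understates the change of low genes. The fit was tested on simulated data, in which changed genes were set to at least a doubling or a halving of FPKM + 1. Noise was drawn independently for each library. That test therefore does not bear on the smaller differences of the members or on deviations shared by replicate number. The members and lists were chosen with earlier results of these data known. Fold changes and tests are printed for TBX3, the 8 enzymes and 10 other members with the smallest unadjusted p, and up to 2 genes of each further list; other members are given by level. Promoters came from RefSeq (GRCh38.p14) and gene positions from an annotation on GRCh37; the builds were not mixed. Alternatives were other pseudocounts, filters, scalings and limma settings, the replicate block, and each library left out. The scaling alternatives for the counts of non-overlapping members were chosen after seeing the data. The share of CA12 in the sum with CA9 was not computed.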

Additional observations from a re-analysis of the deposited data

How the results depend on the processing

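No member was called in any of the 13 alternative fits, and at an unadjusted p of 0.05 the other members gave 1, EPAS1. Over the 38 members tested that count was 6 with the replicate block (LDHA, ENO2, SLC2A1, SLC2A3, BNIP3L and EPAS1). Of all 13924 genes tested, 1989 had an unadjusted p under 0.05 in that limma fit. Over all genes limma called 25; this became 7 with a pseudocount of 0.1, 0 with no filter on low values (1249 at an unadjusted p under 0.05) and 929 at an unadjusted p of 0.05. Leaving out 1 library gave from 12 (without shTBX3 replicate 1) to 55 (without shCtrl replicate 1). With the replicate block it called 132 genes. The numbers are not said to pair libraries; same-numbered libraries deviated together with r = 0.26 (rho = 0.426) over all genes tested and r = 0.729 (rho = 0.68) over the 38 members, across genes that share the libraries. The enzyme median of 0.12 was 0.08 under quantile normalization (0.07606), 0.15 under upper quartile scaling (0.1517), and 0.07799 to 0.1391 with 1 library left out. The median of the other members, 0.04, ran from −0.0618 to 0.196 with 1 library left out. Enzymes wholly above were 5 under quantile normalization and 9 under upper quartile scaling, against 8. With 1 library left out the log2 fold change ran from −0.02093 to 0.6198 for KDM3A, −0.008707 to 0.5338 for BNIP3L, −0.06181 to 0.5424 for SLC16A3 and −0.0943 to 0.5759 for PDK3; where an arm held 1 library, it was assumed to vary like the other. ERO1A had a limma adjusted p of 0.0449 among genes with an FPKM of at least 5 and 0.0327 with the replicate block, and up to 0.298 under the other alternatives. The cause of these shifts was not tested.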

Other observations

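The split by replicate number was also seen in HIF targets outside the member list, where both libraries numbered 2 stood above both numbered 1 in 18 of 39 genes tested, or 46.2%, against 22.2% of all genes tested. In 10 of the 39 both libraries numbered 2 stood below both numbered 1, where 23.2% of all genes tested did. PNRC1, a nuclear receptor coactivator, was at 8.34 and 22.8 in shCtrl, versus 6.29 and 18.4 in shTBX3. CCNG2, an atypical cyclin of resting cells, was at 3.05 and 7.99 in shCtrl, versus 1.60 and 3.92 in shTBX3. Both genes were chosen after their values were seen. What moved these genes was not tested.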
